A study of Caenorhabditis elegans with 15 samples.

Results

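The yolk protein genes of Caenorhabditis elegans, vit-1 to vit-6, were followed through RNA immunoprecipitates of the cap-binding proteins IFE-1 and IFE-3, together with WBGene00004375, an ID listed with them as the yolk receptor gene rme-2. The 7 genes were taken by their WormBase IDs from a table of 46934 genes, and all 7 were found. RNA bound to tagged protein (RIP-seq) and total RNA were measured in whole worms grown for 3 days at 20 °C. Strain KX155 carries mKate::ife-1 on chromosome III and GFP::ife-3 on chromosome V, both made by CRISPR, so both tagged paralogs are present in the same worms. From this strain came 3 libraries of the mKate::IFE-1 pull-down, called IFE-1 RIP, 3 of the GFP::IFE-3 pull-down, called IFE-3 RIP, and 3 of total RNA. Strain LP307, with an mKate::PH insertion on chromosome II, gave 3 mKate control RIP libraries on the same type of beads as IFE-1. Strain LP306, with a GFP::PH insertion on chromosome II, gave 3 GFP control RIP libraries on the same type of beads as IFE-3. The promoter that drives the PH constructs is not given in the sources used here, and total RNA of LP307 and LP306 was not analysed here, so in the control RIPs strain, tag and trap cannot be told apart.

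Vitellogenins are the precursors of yolk. In the adult hermaphrodite their mRNAs are made in the intestine, the proteins are secreted into the body cavity, and growing oocytes take them up by endocytosis through RME-2, a receptor of the LDL receptor family. IFE-1 and IFE-3 are eIF4E paralogs, which bind the cap of mRNAs, and both are known from the germline. The vit genes are thus mRNAs of the intestine set beside proteins known from the germline. Whether either protein is also present in the intestine was not tested here. Because whole worms were used, fewer cells of a type and less RNA per cell cannot be told apart.

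In the WBcel235 gene table vit-1 (WBGene00006925) lies at X:7727889-7733168, vit-2 (WBGene00006926) at X:5101032-5106169 and vit-3 (WBGene00006927) at X:3567355-3572549. There vit-4 (WBGene00006928) lies at X:3558769-3563965, vit-5 (WBGene00006929) at X:3403471-3408603 and vit-6 (WBGene00006930) at IV:8261157-8266459. All 6 are annotated as protein-coding. The neighbours vit-4 and vit-3 are separated by 3389 bases, with 0 annotated genes wholly between them. The products of vit-3, vit-4 and vit-5 are closely related to each other, those of vit-1 and vit-2 form another such pair, and the vit-6 product is a more distant precursor that is cut into smaller yolk proteins. Reads from near-identical copies could be split between them by the authors' quantification. Separate values of vit-3 and vit-4, beside the far more abundant vit-5, are therefore uncertain, as is that of vit-1 beside the far more abundant vit-2.

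Neither the deposited table nor the gene table pairs WormBase IDs with symbols, and the names were checked only by the form of the values. Values of vit-1 to vit-5 had at most 6 significant digits in all 15 libraries, as a single transcript would give, and RefSeq lists 1 transcript for each of these genes. Values of vit-6 had more digits in 15 of 15 libraries, as a sum of transcripts would give, and RefSeq lists 2. WBGene00004375 also had more digits in 15 of 15 libraries and rme-2 has 2 RefSeq transcripts, but this does not settle the identity. It is therefore called by its ID, and no statement about the receptor rests on it. Lists of intestinal, germline, sperm, hypodermal and muscle markers, and of other yolk pathway genes, could not be matched to IDs, so the tissue label was not checked and no pathway list is described.

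Levels are given as TPM, an abundance corrected for transcript length, divided by 1 factor per library that centres the typical gene, and are called scaled TPM. The sequencing depth of a TPM table is unknown, so no counting interval was given. Between 10066 and 14306 genes reached 1 TPM in a library, and the 10 highest genes held between 57.8% and 76.0% of all TPM. All 7 genes were above 0 in every library. All 7 also passed the filter for testing (1 TPM in at least 3 libraries) in every comparison.

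By the deposited values the family split into abundant and scarce mRNAs. The low values of vit-1, vit-3 and vit-4 carry the uncertainty given above for reads split between near-identical copies. In total RNA vit-2 averaged 373 ± 17.0 scaled TPM, vit-6 averaged 228 ± 1.75 and vit-5 averaged 167 ± 8.70 (SD, n = 3 each). These levels ranked 174, 263 and 336 among 20873 genes above 0. The remaining genes were far lower in total RNA, with 2.91 ± 0.277 scaled TPM for vit-3, 2.47 ± 0.258 for vit-1 and 2.24 ± 0.204 for vit-4, and WBGene00004375 stood at 3.86 ± 0.379 (SD, n = 3 each). Together the vit genes held 0.0604 ± 0.00249% of all TPM in total RNA (SD, n = 3). Of this sum vit-2 made up 48.1%, vit-6 made up 29.4%, vit-5 made up 21.6%, and vit-1, vit-3 and vit-4 together made up 0.984%.

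**Figure D1:**
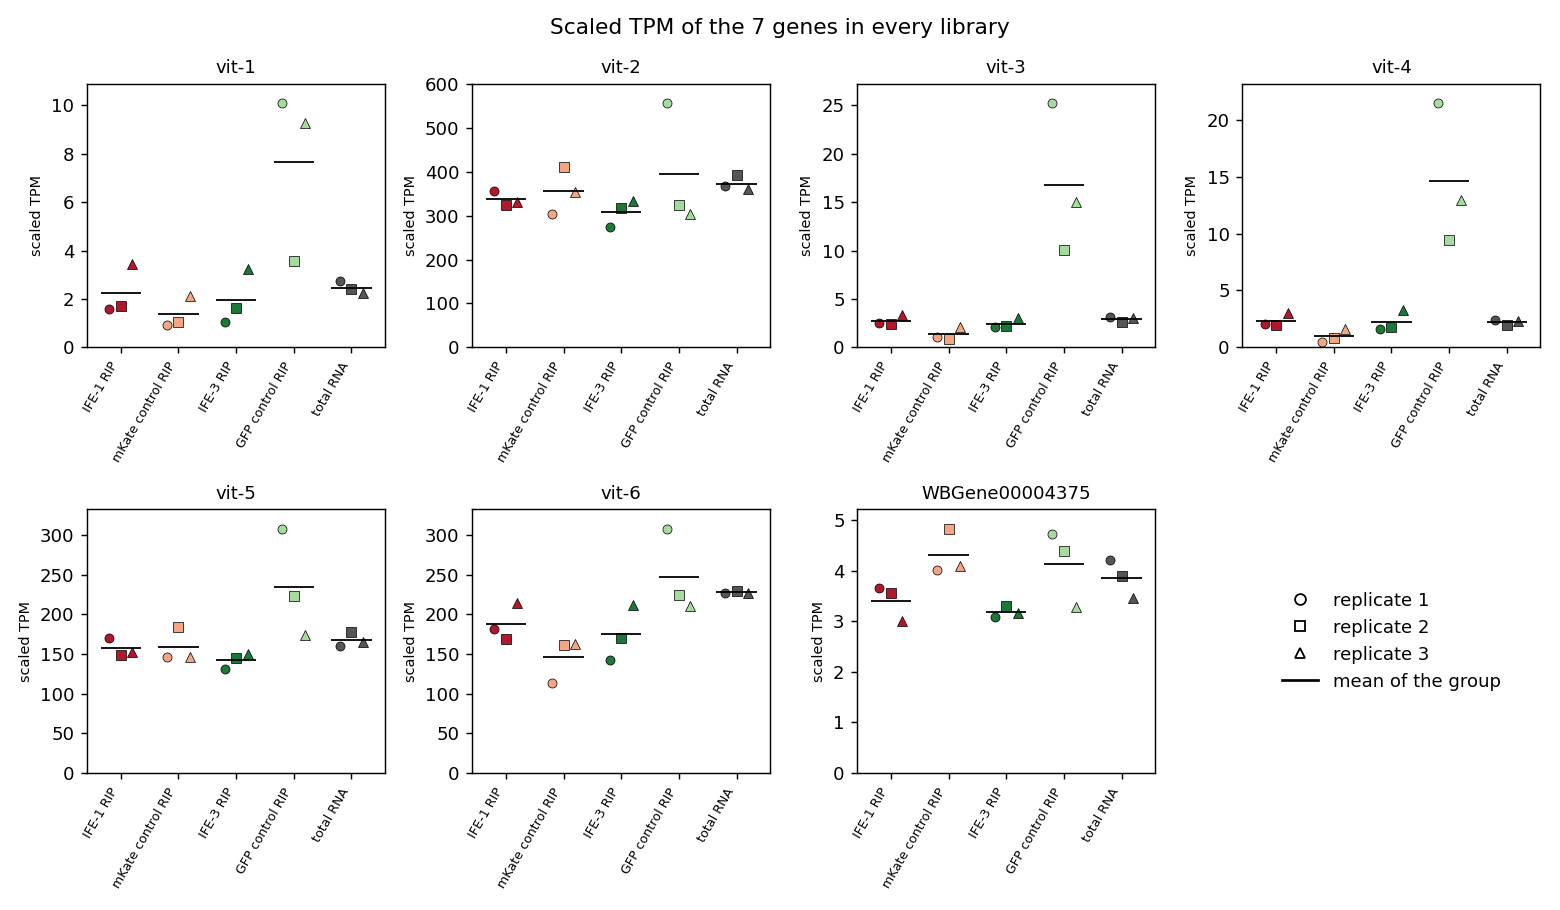
Scaled TPM (y axis, linear from 0) of each of the 7 genes in the 15 libraries, by group on the x axis. Points are libraries, with the replicate number given by the shape, and lines are group means. The 3 GFP control RIP libraries stand above all others for vit-1, vit-3 and vit-4, with vit-3 between 10.1 and 25.2 scaled TPM.

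The first question was whether the yolk mRNAs stood higher or lower in IFE-1 RIP or IFE-3 RIP than in total RNA. All were present in both RIPs, and no difference from total RNA passed the test. The most abundant, vit-2, measured 356, 325 and 331 scaled TPM with IFE-1 RIP and 275, 317 and 333 with IFE-3 RIP, against 367, 392 and 359.7 in total RNA. All RIP libraries were below all total RNA libraries for this mRNA. Its log2 fold change was -0.15 ± 0.11 SE for IFE-1 RIP (limma adjusted p = 0.460) and -0.27 ± 0.11 SE for IFE-3 RIP (limma adjusted p = 0.168), so neither difference passed the test.

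Levels of vit-6 were 181, 169 and 214 scaled TPM with IFE-1 RIP and 143, 171 and 212 with IFE-3 RIP, against 227, 229.9 and 227 in total RNA. Again no RIP library reached the total RNA libraries, while replicate 3 of both RIPs came nearest. For vit-6 the log2 fold change was -0.28 ± 0.15 SE for IFE-1 RIP (limma adjusted p = 0.284) and -0.39 ± 0.15 SE for IFE-3 RIP (limma adjusted p = 0.148). Without IFE-3 RIP replicate 3 the log2 fold change of vit-6 in IFE-3 RIP was -0.53 with a limma adjusted p of 0.0449, in a fit that called 13.7% of all genes. With quantile normalization limma called both vit-2 (log2 fold change -0.44, limma adjusted p = 0.0377) and vit-6 (log2 fold change -0.44, limma adjusted p = 0.0298) lower in IFE-3 RIP, and 13.02% of all genes in either direction. Of 15 alternatives, 1 called vit-2 and 2 called vit-6 in IFE-3 RIP.

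For vit-5, values were 170.4, 149 and 152 scaled TPM with IFE-1 RIP and 131, 145 and 149.9 with IFE-3 RIP, against 161, 177 and 165 in total RNA. The IFE-1 RIP libraries overlapped with total RNA and the IFE-3 RIP libraries did not. Fold changes of vit-5 were -0.09 ± 0.11 SE for IFE-1 RIP on the log2 scale (limma adjusted p = 0.632) and -0.23 ± 0.11 SE for IFE-3 RIP (limma adjusted p = 0.212).

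The scarce vit mRNAs overlapped between the RIPs and total RNA. Values of vit-3 were 2.51, 2.40 and 3.31 scaled TPM with IFE-1 RIP and 2.14, 2.20 and 3.00 with IFE-3 RIP, against 3.11, 2.60 and 3.04 in total RNA. Those of vit-4 were 2.02, 1.97 and 3.01 with IFE-1 RIP and 1.64, 1.79 and 3.24 with IFE-3 RIP, against 2.37, 2.00 and 2.34 in total RNA. Those of vit-1 were 1.58, 1.71 and 3.45 with IFE-1 RIP and 1.07, 1.61 and 3.25 with IFE-3 RIP, against 2.75, 2.42 and 2.24 in total RNA. In each of these genes replicate 3 was the highest library of both RIPs, and the groups overlapped with total RNA. For vit-1, vit-3 and vit-4 the log2 fold changes were -0.14 ± 0.28 SE, -0.07 ± 0.14 SE and 0.03 ± 0.19 SE for IFE-1 RIP, and -0.27 ± 0.28 SE, -0.18 ± 0.14 SE and -0.03 ± 0.19 SE for IFE-3 RIP, with a limma adjusted p of at least 0.455.

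WBGene00004375 measured 3.65, 3.55 and 3.00 scaled TPM with IFE-1 RIP and 3.08, 3.31 and 3.16 with IFE-3 RIP, against 4.21, 3.90 and 3.46 in total RNA. The IFE-3 RIP libraries lay below all total RNA libraries and the IFE-1 RIP libraries overlapped with them. On the log2 scale its fold change was -0.14 ± 0.10 SE for IFE-1 RIP (limma adjusted p = 0.431) and -0.20 ± 0.10 SE for IFE-3 RIP (limma adjusted p = 0.253).

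Counted over the set, limma called 0 of the 7 genes for IFE-1 RIP against total RNA, where it called 10.2% of all genes tested. It also called 0 of 7 for IFE-3 RIP against total RNA, where it called 11.2% of all genes. At an unadjusted p under 0.05 there were 0 of 7 genes for IFE-1 RIP (26.4% of all genes) and 2 of 7, vit-2 and vit-6, for IFE-3 RIP (26.9% of all genes). Groups did not overlap for 2 of 7 genes with IFE-1 RIP, against 32.8% of all genes, and for 4 of 7 with IFE-3 RIP, against 31.6%. All of these were lower in the RIP, a direction in which groups lay apart for 19.6% of all genes with IFE-1 RIP and 15.6% with IFE-3 RIP. The median log2 fold change of the 7 genes was -0.14 for IFE-1 RIP and -0.23 for IFE-3 RIP, beside medians of -0.01 and 0.03 over all genes. These directions hold for scaled TPM. With unscaled TPM the medians over all genes were 0.21 and 0.27, and 7 of 7 genes were above total RNA with IFE-1 RIP and 5 of 7 with IFE-3 RIP, while with quantile normalization all 7 were below it in both. The RIP comparisons share the total RNA libraries. For scaled TPM the 95% confidence intervals in IFE-1 RIP were -0.41 to 0.11 for vit-2, -0.34 to 0.15 for vit-5 and -0.64 to 0.07 for vit-6 on the log2 scale. In IFE-3 RIP they were -0.53 to -0.01 for vit-2, -0.47 to 0.01 for vit-5 and -0.74 to -0.04 for vit-6. Those of vit-2 and vit-6 in IFE-3 RIP thus lay below 0 before adjustment over all genes. These intervals do not cover the choice of scaling. With unscaled TPM vit-2 and vit-5 lay above their intervals, at 0.14 and 0.19 for IFE-1 RIP and 0.060 and 0.10 for IFE-3 RIP. For vit-6 the unscaled values, 0.0044 for IFE-1 RIP and -0.058 for IFE-3 RIP, lay within them.

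The second question was whether the RIPs of the paralogs differed in their yolk mRNAs. Set against each other, IFE-1 RIP and IFE-3 RIP overlapped for all 7 genes. Groups lay apart for 20.8% of all genes. Limma called 0 of 7 genes, against 1.52% of all genes tested, and 0 of 7 had an unadjusted p under 0.05, against 16.6%. The log2 fold change of IFE-1 RIP over IFE-3 RIP was 0.12 for vit-2 (95% confidence interval -0.14 to 0.38), 0.13 for vit-5 (-0.11 to 0.38), 0.10 for vit-6 (-0.25 to 0.46) and 0.06 for WBGene00004375 (-0.17 to 0.29). The widest interval was that of vit-1, from -0.49 to 0.76. All 7 genes were on the IFE-1 side by a median of 0.11 on the log2 scale, with a median of 0.02 over all genes. The limma adjusted p lay between 0.598 and 0.915 over the 7 genes.

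**Figure D2:**
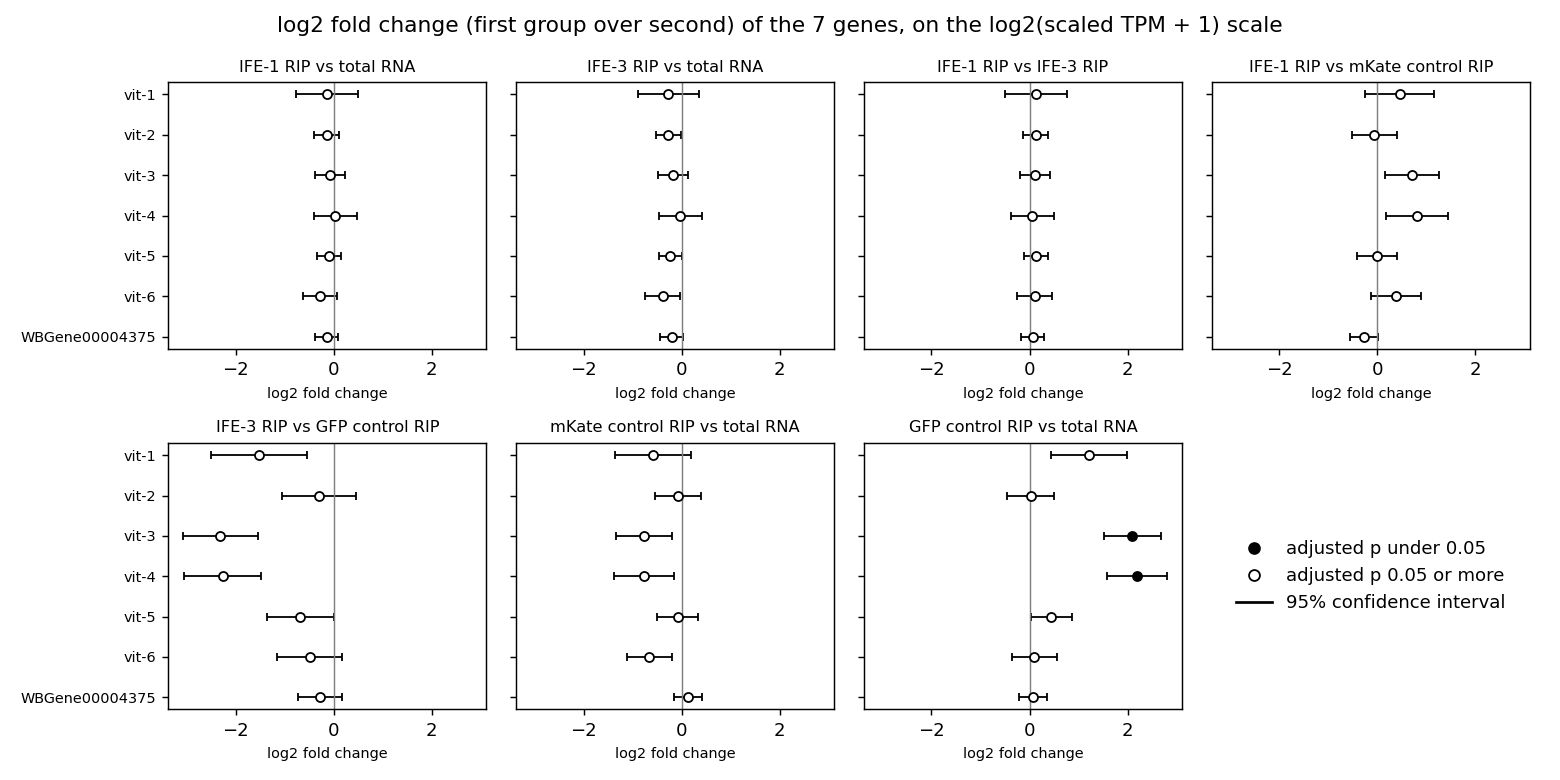
The log2 fold change (x axis) of each of the 7 genes (y axis) in 7 comparisons, the group named before "vs" over the group named after it, on the log2(scaled TPM + 1) scale. Points are limma estimates, bars are 95% confidence intervals, and filled points passed an adjusted p of 0.05. The filled points are vit-3 at 2.10 and vit-4 at 2.20 in GFP control RIP against total RNA.

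Each RIP was also set against the RIP from the tag-only strain on the same type of beads. The submitters did not use these libraries, because they judged mRNA to be poorly represented in them. All 7 genes were also above 0 in each of these libraries, so their presence in an IFE RIP does not by itself show binding by IFE-1 or IFE-3. In mKate control RIP vit-2 stood at 303, 411 and 354 scaled TPM and vit-5 at 147, 184 and 146, and both overlapped with IFE-1 RIP. On the log2 scale the fold change of IFE-1 RIP over mKate control RIP was -0.06 ± 0.19 SE for vit-2 (limma adjusted p = 0.850) and -0.01 ± 0.17 SE for vit-5 (limma adjusted p = 0.984). Of vit-6 there were 181, 169 and 214 scaled TPM in IFE-1 RIP, above the 114, 162 and 163 of mKate control RIP (log2 fold change 0.38 ± 0.21 SE, limma adjusted p = 0.284). With quantile normalization the log2 fold change was -0.85 for vit-2 (limma adjusted p = 0.0992), -0.67 for vit-5 (limma adjusted p = 0.165) and -0.23 for vit-6 (limma adjusted p = 0.348).

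The pair vit-3 and vit-4 lay apart in this comparison. In mKate control RIP vit-3 stood at 1.05, 0.890 and 2.12 scaled TPM and vit-4 at 0.451, 0.811 and 1.62, so that all IFE-1 RIP libraries were higher for both genes. For IFE-1 RIP over mKate control RIP the log2 fold change was 0.71 ± 0.23 SE for vit-3 (limma adjusted p = 0.124) and 0.81 ± 0.26 SE for vit-4 (limma adjusted p = 0.123). With the replicate number as a block the limma adjusted p was 0.0474 for vit-3 and 0.0473 for vit-4, in a fit that called 12.7% of all genes. The pairing behind this block was weak. Deviations of same-numbered libraries of these groups correlated at 0.152 or more, and those of differently numbered libraries at up to 0.133. Without mKate control RIP replicate 3, the highest of its group for both genes, the log2 fold changes were 0.93 and 1.04 with a limma adjusted p of 0.0391 and 0.0426, and 12.7% of all genes were called. Of 14 alternatives, 12 gave no call for vit-3 and 12 none for vit-4, with a limma adjusted p of up to 0.291 and 0.280. WBGene00004375 went the other way, with all IFE-1 RIP libraries below the 4.01, 4.82 and 4.10 scaled TPM of mKate control RIP (log2 fold change -0.27 ± 0.12 SE, limma adjusted p = 0.200).

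Against mKate control RIP limma called 0 of 7 genes without the block, where it called 0.474% of all genes tested, and 2 of 7 with it, where it called 12.7%. At an unadjusted p under 0.05 there were 2 of 7, against 27.4% of all genes. Groups did not overlap for 4 of 7 genes, of which vit-3, vit-4 and vit-6 were higher and WBGene00004375 lower in IFE-1 RIP, against 33.9% of all genes (16.6% higher and 17.3% lower). The median log2 fold change of the 7 genes was 0.38, beside 0.01 over all genes.

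In GFP control RIP vit-1, vit-3 and vit-4 stood above every library of any other group. There vit-3 reached 25.2, 10.1 and 15.0 scaled TPM, vit-4 reached 21.4, 9.40 and 12.96, and vit-1 reached 10.1, 3.55 and 9.27. For vit-1 the gap was narrow, with 3.55 in the lowest of these libraries against 3.45 in the highest library elsewhere. For IFE-3 RIP over GFP control RIP the log2 fold change was -2.32 ± 0.32 SE for vit-3 (limma adjusted p = 0.0644), -2.27 ± 0.33 SE for vit-4 (limma adjusted p = 0.0658) and -1.53 ± 0.42 SE for vit-1 (limma adjusted p = 0.228). With the replicate number as a block the limma adjusted p of vit-3 and of vit-4 was 0.0419, in a fit that called 1.15% of all genes. Without GFP control RIP replicate 2, the lowest of its group, the log2 fold change was -2.60 for vit-3, -2.51 for vit-4 and -1.93 for vit-1, with a limma adjusted p of 0.0187, 0.0254 and 0.0490, and 2.21% of all genes were called. In a fit of all 15 libraries the limma adjusted p was 0.00123 for vit-3, 0.00195 for vit-4 and 0.0372 for vit-1, and 4.32% of all genes were called. With a pseudocount of 5 the log2 fold change was -1.55 for vit-3, -1.46 for vit-4 and -0.87 for vit-1. Of 15 alternatives, 11 gave no call for vit-3 and 11 none for vit-4, with a limma adjusted p of up to 0.259 and 0.271. For vit-1, 12 of 14 alternatives gave no call, with a limma adjusted p of up to 0.585.

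The abundant members had smaller fold changes. In GFP control RIP vit-2 stood at 556, 324 and 303 scaled TPM, vit-5 at 307, 223 and 174, and vit-6 at 308, 224 and 211. Replicate 1 was the highest library for each of them, and only vit-5 did not overlap with IFE-3 RIP. Fold changes of IFE-3 RIP over GFP control RIP on the log2 scale were -0.30 ± 0.32 SE for vit-2 (limma adjusted p = 0.801), -0.68 ± 0.29 SE for vit-5 (limma adjusted p = 0.394) and -0.49 ± 0.28 SE for vit-6 (limma adjusted p = 0.569). WBGene00004375 stood at 4.71, 4.38 and 3.29 scaled TPM in GFP control RIP, with a log2 fold change of IFE-3 RIP over GFP control RIP of -0.29 ± 0.19 SE (limma adjusted p = 0.636). Limma called 0 of 7 genes without the block, where it called 0.0898% of all genes tested, and 4 of 7 had an unadjusted p under 0.05, against 12.5% of all genes. Groups did not overlap for 4 of 7 genes, all lower in IFE-3 RIP, against 18.5% of all genes in either direction and 7.14% lower. The median log2 fold change of the 7 genes was -0.68, beside 0.02 over all genes.

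The control RIPs were then set against total RNA of KX155, a comparison in which strain and pull-down differ together. In GFP control RIP vit-3 and vit-4 rose, by a log2 fold change of 2.10 ± 0.27 SE and 2.20 ± 0.28 SE (limma adjusted p = 0.00160 for each). On the scale of group means this was 5.76-fold for vit-3 and 6.53-fold for vit-4. Both calls were kept under all 14 alternatives, with a log2 fold change from 1.40 to 2.69 for vit-3 and from 1.39 to 2.77 for vit-4, and a limma adjusted p of at most 0.0118. Under the filter at 5 TPM both genes passed only through GFP control RIP, where they were high, so that alternative adds no support. The vit-1 mRNA was 3.09-fold higher by group means, with all 3 libraries above total RNA, and missed the call (log2 1.21 ± 0.35 SE, limma adjusted p = 0.0611). Without GFP control RIP replicate 2 its limma adjusted p was 0.00551 at a log2 fold change of 1.62, and 15.7% of all genes were called. In 9 of 13 alternatives vit-1 was not called, with a limma adjusted p of up to 0.186. For the remaining genes the log2 fold change of GFP control RIP over total RNA was 0.45 ± 0.19 SE for vit-5 (limma adjusted p = 0.198), 0.10 ± 0.21 SE for vit-6 (limma adjusted p = 0.825), 0.03 ± 0.22 SE for vit-2 (limma adjusted p = 0.968) and 0.07 ± 0.13 SE for WBGene00004375 (limma adjusted p = 0.796). Without GFP control RIP replicate 3 the limma adjusted p of vit-5 was 0.0474 at a log2 fold change of 0.65, and 6.26% of all genes were called. In 12 of 14 alternatives vit-5 was not called, with a limma adjusted p of up to 0.495. Limma thus called 2 of 7 genes, both higher, against 6.43% of all genes tested in either direction and 2.00% higher, and 4 of 7 had an unadjusted p under 0.05, against 22.4%. Groups did not overlap for 3 of 7, all higher, against 20.5% of all genes in either direction and 8.93% higher. With unscaled TPM the median over all genes was 0.55, and limma called 7 of 7 genes higher and 38.9% of all genes in either direction.

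In mKate control RIP vit-1, vit-3 and vit-4 lay on the other side of total RNA, with no call. On the log2 scale the fold change of mKate control RIP over total RNA was -0.77 ± 0.27 SE for vit-3 (limma adjusted p = 0.0944), -0.77 ± 0.28 SE for vit-4 (limma adjusted p = 0.113) and -0.58 ± 0.35 SE for vit-1 (limma adjusted p = 0.336), and all mKate control RIP libraries were below total RNA for each. Among the abundant members vit-6 was also below total RNA in all libraries (log2 -0.66 ± 0.21 SE, limma adjusted p = 0.0703), while vit-2 and vit-5 overlapped with it. Limma called 0 of 7 genes, against 8.16% of all genes tested, and 3 of 7 had an unadjusted p under 0.05, against 24.9%. Groups did not overlap for 4 of 7 genes, all lower in mKate control RIP, against 34.6% of all genes in either direction and 18.3% lower. Without mKate control RIP replicate 3 vit-3 had a log2 fold change of -0.99 with a limma adjusted p of 0.0464, and 8.44% of all genes were called. In 12 of 14 alternatives vit-3 was not called, with a limma adjusted p of up to 0.331. With quantile normalization the log2 fold change was 0.62 for vit-2, 0.55 for vit-5 and -0.07 for vit-6. With unscaled TPM the median over all genes was 0.40, vit-2 and vit-5 were above total RNA, at log2 fold changes of 0.48 and 0.48, and limma called WBGene00004375 higher (log2 fold change 0.57, limma adjusted p = 0.0217) among 22.6% of all genes.

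Whether the ratio of a RIP to its own control differed between the paralogs was tested in a fit of all 15 libraries. The log2 ratio of IFE-1 RIP to mKate control RIP exceeded that of IFE-3 RIP to GFP control RIP by 2.98 ± 0.38 SE for vit-3 (limma adjusted p = 0.00446) and by 3.03 ± 0.40 SE for vit-4 (limma adjusted p = 0.00534). Both calls were kept under all 20 alternatives, with a difference from 1.78 to 3.69 for vit-3 and from 1.70 to 3.97 for vit-4, and a limma adjusted p of at most 0.0189. Here too the filter at 5 TPM adds no support, because both genes passed it only through GFP control RIP. The difference was 1.95 ± 0.50 SE for vit-1 (limma adjusted p = 0.0629, or 0.0177 with the replicate number as a block, 0.0355 without IFE-3 RIP replicate 3 and 0.0126 without GFP control RIP replicate 2, where 8.79%, 3.52% and 7.27% of all genes were called), 0.87 ± 0.29 SE for vit-6 (limma adjusted p = 0.132), 0.67 ± 0.28 SE for vit-5 (limma adjusted p = 0.201), 0.24 ± 0.31 SE for vit-2 (limma adjusted p = 0.698) and 0.01 ± 0.18 SE for WBGene00004375 (limma adjusted p = 0.980). In 16 of 19 alternatives vit-1 was not called, with a limma adjusted p of up to 0.155. Limma called 2 of 7 genes, both positive, against 2.21% of all genes tested in either direction and 0.992% positive. At an unadjusted p under 0.05 there were 5 of 7, against 19.7% of all genes. The IFE RIPs themselves overlapped for vit-3 and vit-4, and it was the control RIPs of the tag-only strains that lay apart.

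Ratios between vit mRNAs within a library do not depend on how libraries were scaled. Per 100 TPM of vit-2, vit-3 amounted to 0.814 ± 0.162 TPM with IFE-1 RIP, 0.792 ± 0.103 with IFE-3 RIP, 0.387 ± 0.194 in mKate control RIP, 4.20 ± 0.965 in GFP control RIP and 0.784 ± 0.106 for total RNA (SD, n = 3 each). In GFP control RIP the libraries stood at 4.54, 3.12 and 4.96, and the highest library of any other group was at 1.00. For vit-4 the amount was 0.695 ± 0.187 with IFE-1 RIP, 0.712 ± 0.228 with IFE-3 RIP, 0.268 ± 0.165 in mKate control RIP, 3.68 ± 0.704 in GFP control RIP and 0.602 ± 0.0791 for total RNA (SD, n = 3 each). Per 100 TPM of vit-5, vit-3 amounted to 1.75 ± 0.371 TPM with IFE-1 RIP and 1.72 ± 0.253 with IFE-3 RIP. It amounted to 0.883 ± 0.506 in mKate control RIP, 7.13 ± 2.26 in GFP control RIP and 1.75 ± 0.250 for total RNA (SD, n = 3 each). Both IFE RIPs overlapped with total RNA in these ratios, GFP control RIP lay above it and mKate control RIP below it.

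The abundant members showed smaller departures. Per 100 TPM of vit-2, vit-5 amounted to 46.6 ± 1.11 TPM with IFE-1 RIP, 46.2 ± 1.42 with IFE-3 RIP, 44.8 ± 3.62 in mKate control RIP, 60.4 ± 7.25 in GFP control RIP and 44.9 ± 1.04 for total RNA (SD, n = 3 each). The GFP control RIP libraries, from 55.3 to 68.7, were above all others. For vit-6 the amount was 55.9 ± 7.69 with IFE-1 RIP, 56.5 ± 6.21 with IFE-3 RIP, 41.0 ± 4.34 in mKate control RIP, 64.7 ± 8.11 in GFP control RIP and 61.2 ± 2.27 for total RNA (SD, n = 3 each). The mKate control RIP libraries, from 37.6 to 45.9, were below all others.

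**Figure D3:**
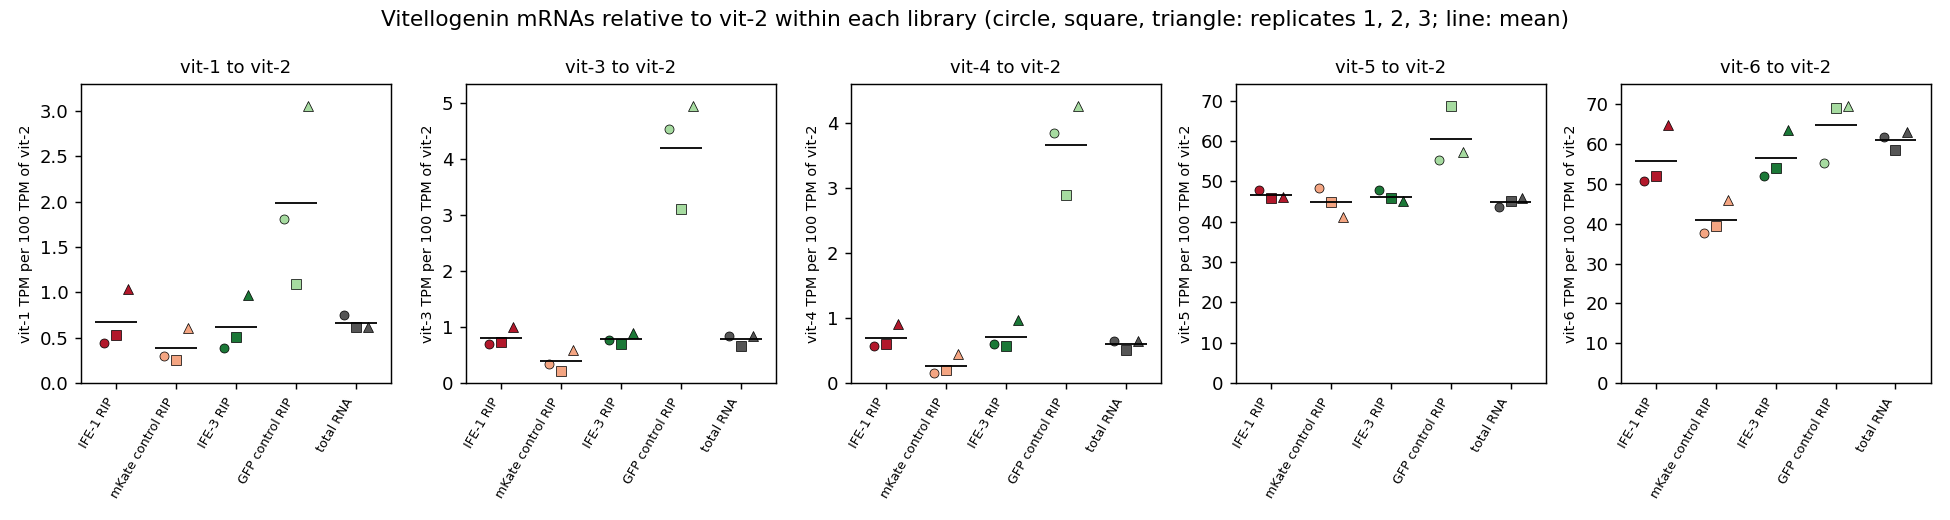
TPM of vit-1, vit-3, vit-4, vit-5 and vit-6 per 100 TPM of vit-2 in the same library (y axes, linear from 0), by group on the x axis. Points are libraries and lines are group means. The GFP control RIP libraries lie apart for vit-3 (3.12 to 4.96) and vit-4 (2.90 to 4.27), and the IFE RIPs lie with total RNA.

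In level order, vit-3 was highest in GFP control RIP, then in total RNA, IFE-1 RIP, IFE-3 RIP and mKate control RIP. Neighbours in this order did not overlap at its top and bottom, between GFP control RIP and total RNA and between IFE-3 RIP and mKate control RIP, and overlapped elsewhere. For vit-4 the order was GFP control RIP, IFE-1 RIP, total RNA, IFE-3 RIP and mKate control RIP, with gaps at the same ends. For vit-1 the order was that of vit-3 and the gap lay only below GFP control RIP. For vit-2 and vit-5 the order was GFP control RIP, total RNA, mKate control RIP, IFE-1 RIP and IFE-3 RIP, with every neighbour overlapping. For vit-6 it was that of vit-3, and the only gap lay between total RNA and IFE-1 RIP. WBGene00004375 was highest in mKate control RIP, at 4.31 ± 0.446 scaled TPM, then in GFP control RIP at 4.13 ± 0.744, total RNA at 3.86 ± 0.379, IFE-1 RIP at 3.40 ± 0.352 and IFE-3 RIP at 3.18 ± 0.117 (SD, n = 3 each), with every neighbour overlapping.

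The summed vit mRNAs exceeded WBGene00004375 by a factor of 205 ± 27.5 with IFE-1 RIP, 199 ± 21.9 with IFE-3 RIP, 154 ± 11.6 in mKate control RIP, 221 ± 39.6 in GFP control RIP and 202 ± 19.4 for total RNA (SD, n = 3 each, TPM over TPM). The mKate control RIP libraries, from 141 to 163, were below all others, and the remaining groups overlapped. Over the 15 libraries, which share strains and pull-downs, the log2 scaled TPM of vit-3 and vit-4 moved together with a Pearson r of 0.993, and that of vit-1 with vit-3 with an r of 0.935. For vit-2 the r was 0.790 with vit-5 and 0.383 with vit-3. WBGene00004375 had an r of 0.672 with vit-2 and 0.148 with vit-3. Among 3334 other genes that averaged 10 scaled TPM or more and were above 0 throughout, the patterns most like the summed vit mRNAs were those of WBGene00006803 (r = 0.756) and WBGene00014204 (r = 0.704), and those most like WBGene00004375 were WBGene00003903 (r = 0.891) and WBGene00003858 (r = 0.874). These correlations describe the 15 libraries only.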

How the data were processed

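The authors deposited 1 table of TPM values per gene for 15 libraries. Per the submitters' processing notes, the build was WBcel235 and the tools were R 4.4.1, kallisto 0.48.0 and DESeq2 1.34.0, with no role given. Per the labels' protocols rRNA was depleted and strand was not kept, so antisense reads cannot be separated. TPM keeps neither depth nor the amount of RNA recovered.

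Each library was divided by the median ratio to the geometric mean over the genes that no library of the fit had at 0 (all 15 libraries for printed levels). Genes with at least 1 TPM in 3 libraries were tested two-sided on log2(scaled TPM + 1) with limma 3.58.1 (lmFit, eBayes with trend) in R 4.3.3, which understates changes of low genes. P-values were adjusted by Benjamini-Hochberg over all genes tested, and genes were called under 0.05. Both IFE RIPs were fitted together with total RNA over 9 libraries, each RIP and its control a fit of 6, and other comparisons a fit of 15. The fit was tested on simulated data with planted changes. For IFE-1 RIP against mKate control RIP limma called 44% of genes with a log2 change of 1 and 79% with 2. For IFE-1 RIP against total RNA it called 76% and 95%. Genes with no planted change gave 7 false calls for IFE-1 RIP against mKate control RIP and 15 against total RNA. Changes were planted only in more abundant genes, so these shares do not cover levels as low as those of vit-1, vit-3, vit-4 and WBGene00004375. The labels call the replicates biological without saying what was separate, and p-values measure only the spread between these libraries. The pulldown batch in the labels is shared only by a RIP and its control. Elsewhere it coincides with the groups and cannot be told apart from them.

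Same-numbered libraries deviated together, with correlations of at least 0.149 for both IFE RIPs, at least 0.152 for IFE-1 RIP with its mKate control and at least 0.173 for IFE-3 RIP with its GFP control. Differently numbered libraries reached 0.107, 0.133 and 0.0862 in these comparisons, so the margin was small for IFE-1 RIP with its mKate control. No main fit used the replicate number. It entered only as a block in an alternative fit, and the pairing behind it comes from the data. Against total RNA some correlations were below 0.1. The 7 genes and the tests were chosen with earlier results of these data known. Genes of like pattern were named by the highest Pearson r, at most 2 for each pattern. Positions come from the RefSeq gene table of WBcel235, matched by symbol. Alternatives covered scaling, pseudocount, filter, trend, block, libraries in the fit and each replicate left out.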

Additional observations from a re-analysis of the deposited data

Results flagged for a closer look

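For vit-3 the log2 ratio of IFE-1 RIP to mKate control RIP minus that of IFE-3 RIP to GFP control RIP was 2.98, and for vit-4 it was 3.03, each past the test of the difference itself. Reads could be split between these 2 near copies, or with the related vit-5, which was not tested. In levels, vit-3 averaged 2.74 ± 0.496 scaled TPM in IFE-1 RIP against 1.35 ± 0.670 in mKate control RIP, while IFE-3 RIP averaged 2.45 ± 0.481 against 16.8 ± 7.72 in GFP control RIP (SD, n = 3 each).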

How the results depend on the processing

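Of 840 values of a gene under an alternative setting, 763 kept their direction and their side of the threshold, 0 lost a call, 32 gained one and 45 changed sign. None of the sign changes had an adjusted p under 0.05 (lowest 0.129). The causes were not tested. With unscaled TPM the log2 fold change for IFE-1 RIP over total RNA was 0.062 for vit-1, 0.14 for vit-2, 0.13 for vit-3, 0.19 for vit-5, 0.0044 for vit-6 and 0.079 for WBGene00004375. For IFE-3 RIP over total RNA it was 0.060 for vit-2, 0.055 for vit-3, 0.19 for vit-4, 0.10 for vit-5 and 0.049 for WBGene00004375, and for mKate control RIP over total RNA 0.48 for vit-2 and 0.48 for vit-5. With quantile normalization vit-4 was at -0.079 for IFE-1 RIP over total RNA, vit-6 at -0.23 for IFE-1 RIP over mKate control RIP, vit-2 at 0.62 and vit-5 at 0.55 for mKate control RIP over total RNA, and WBGene00004375 at -0.039 for the difference between the control-corrected RIPs. With 1 library left out, vit-4 ranged from -0.10 to 0.10 for IFE-1 RIP over total RNA and from -0.23 to 0.10 for IFE-3 RIP over total RNA. For IFE-1 RIP over IFE-3 RIP the range was -0.11 to 0.41 for vit-1, -0.074 to 0.26 for vit-4 and -0.031 to 0.25 for vit-6. For IFE-1 RIP over mKate control RIP it was -0.17 to 0.044 for vit-2 and -0.066 to 0.10 for vit-5, and for mKate control RIP over total RNA -0.19 to 0.033 for vit-2. For GFP control RIP over total RNA it was -0.24 to 0.19 for vit-2, -0.059 to 0.21 for vit-6 and -0.0077 to 0.20 for WBGene00004375, and for the difference between the control-corrected RIPs -0.037 to 0.40 for vit-2 and -0.070 to 0.14 for WBGene00004375.

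Counts of called genes moved more. For IFE-1 RIP over total RNA limma called 1232 genes, 235 with all 15 libraries in 1 fit and 517 to 866 with 1 library left out. For IFE-3 RIP over total RNA it called 1356, 2758 with unscaled TPM, 717 with no filter, 253 with all 15 libraries and 320 to 1614 with 1 library left out. Of the 7 genes 2 were called with quantile normalization, among 1575 genes, and 0 to 1 with 1 library left out. For IFE-1 RIP over IFE-3 RIP it called 184, 389 with a filter at 5 TPM, 105 with a pseudocount of 5, 23 with no filter, 96 with no trend, 30 with all 15 libraries and 2 to 897 with 1 library left out. For IFE-1 RIP over mKate control RIP it called 58, 97 with quantile normalization, 343 with a filter at 5 TPM, 36 with a pseudocount of 5, 0 with no filter, 161 with all 15 libraries and 0 to 1486 with 1 library left out, with 0 to 2 of the 7 genes. For IFE-3 RIP over GFP control RIP it called 11, 4 with unscaled TPM, 3 with quantile normalization, 23 with a filter at 5 TPM, 3 with a pseudocount of 0.1, 1 with no filter, 27 with no trend, 618 with all 15 libraries and 0 to 258 with 1 library left out. Of the 7 genes 2 were called with a filter at 5 TPM, 3 with all 15 libraries and 0 to 3 with 1 library left out. The calls with the filter at 5 TPM were vit-3 and vit-4, which passed it only through GFP control RIP, where they were high. These calls therefore add no support. For mKate control RIP over total RNA it called 1167, 3238 with unscaled TPM (1 of the 7) and 218 to 1191 with 1 library left out (0 to 1 of the 7). For GFP control RIP over total RNA it called 920, 5566 with unscaled TPM (7 of the 7) and 283 to 2215 with 1 library left out (2 to 3 of the 7). For the difference between the control-corrected RIPs it called 316, 150 with no filter, 189 with no trend and 49 to 1025 with 1 library left out (2 to 3 of the 7). A filter at 5 TPM left 3 to 6 of the 7 genes tested. Depth is unknown, so precision at the low levels of vit-1, vit-3, vit-4 and WBGene00004375 cannot be bounded from counts.

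With the replicate block limma called 2053 genes for IFE-1 RIP over total RNA, 2173 for IFE-3 RIP over total RNA, 532 for IFE-1 RIP over IFE-3 RIP, 1554 for IFE-1 RIP over mKate control RIP (2 of the 7), 141 for IFE-3 RIP over GFP control RIP (2 of the 7), 2314 for mKate control RIP over total RNA (1 of the 7), 1597 for GFP control RIP over total RNA and 1258 for the difference between the control-corrected RIPs. Against total RNA some correlations of same-numbered libraries were below 0.1, so a pairing is not settled there. There the block called vit-3 for mKate control RIP (adjusted p = 0.0458 from limma) and vit-1 for GFP control RIP (adjusted p = 0.0244 from limma). Beside these and the calls given with the comparisons, it changed no call of the 7 genes. Unscaled TPM moved the share of calls that were higher to 88.1% against 40.4% for IFE-1 RIP over total RNA, 94.2% against 49.8% for IFE-3 RIP over total RNA, 95.1% against 36.9% for mKate control RIP and 95.3% against 31.1% for GFP control RIP over total RNA, 43.9% against 65.5% for IFE-1 RIP and 50% against 72.7% for IFE-3 RIP over its control, and 79.2% against 44.9% for the difference between the control-corrected RIPs.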
